A study of Mus musculus with 5 samples.

Results

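Smooth muscle contraction is carried by a small set of proteins, and 10 of their genes were followed here in the drainage tissue of the mouse eye: Acta2, Actg2, Myh11, Cnn1, Tagln, Lmod1, Smtn, Des, Mylk and Myocd. The genes were taken as a named list of contractile genes of iris and ciliary muscle and were found by matching the Ensembl identifiers of the deposited count table to gene symbols. All 10 were found among the 56941 identifiers, and all 10 passed the minimum of 10 counts in at least 1 pool that left 19713 genes for testing. RNA came from the iridocorneal angle, the ring between iris and cornea through which aqueous humor leaves the eye. DBA/2J mice carry a premature stop allele of Gpnmb and develop pigmentary glaucoma, while DBA/2J-Gpnmb+/SjJ mice, called Gpnmb+ here, carry the functional allele. Both strains carry the Tyrp1 b allele, which is linked to atrophy of the iris stroma, and the labels give untreated animals of 12 months and of both sexes. Ddx3y, a Y-linked gene, had 1567 to 4168 reads in the DBA/2J pools but only 0 and 4 in Gpnmb+, which goes against that label for the Gpnmb+ pools. There were 3 DBA/2J pools and 2 Gpnmb+ pools. The protocol describes 3 mice in each pool, but the library names list 3 animals for every DBA/2J pool and 2 for each Gpnmb+ pool. Iris and ciliary body, which hold most of the smooth muscle of the anterior eye, were removed at dissection with some remnants left attached, so the tissue is a limited model of these muscles.

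In smooth muscle, calcium bound to calmodulin activates myosin light chain kinase, which phosphorylates the myosin light chain and lets smooth muscle myosin pull on actin filaments. The genes of this apparatus share control by serum response factor and its partner myocardin. In the anterior eye the iris sphincter and dilator, the ciliary muscle and the walls of vessels are smooth muscle, and trabecular meshwork cells also carry part of the contractile apparatus.

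Serum response factor binds a short AT-rich element, the CArG box. The RefSeq promoter table (assembly GRCm38.p6, an older build than that of the counts) held 6 of the 10 genes, namely Acta2, Cnn1, Lmod1, Smtn, Des and Mylk. Actg2, Myh11, Tagln and Myocd were not matched. None of the 6 had an exact CArG box in the 300 bases from 250 before to 50 after the listed start, and Acta2 and Lmod1 each had 2 with 1 mismatch. The element reads alike on both strands. Among all 32851 promoters of this length, 1.63% held an exact box, 19.9% held at least 1 with 1 mismatch and 3.38% held at least 2. Acta2 and Lmod1 are shown because they carry the matches, and their RNA values follow with the other thin filament genes. Only the 250 bases before the start are printed. The Acta2 stretch is chr19:34255374-34255623 on the minus strand and the Lmod1 stretch chr1:135324563-135324812 on the plus strand. Capitals mark the boxes with 1 mismatch, which begin 84 and 34 bases before the start of Acta2 and 189 and 164 bases before the start of Lmod1. They are matches of letters, and binding was not measured.

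Acta2: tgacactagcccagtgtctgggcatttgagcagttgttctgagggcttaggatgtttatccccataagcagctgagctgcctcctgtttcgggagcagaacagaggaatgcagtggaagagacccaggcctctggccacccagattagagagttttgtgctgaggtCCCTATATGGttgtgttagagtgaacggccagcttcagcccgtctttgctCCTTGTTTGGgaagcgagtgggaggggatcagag

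Lmod1: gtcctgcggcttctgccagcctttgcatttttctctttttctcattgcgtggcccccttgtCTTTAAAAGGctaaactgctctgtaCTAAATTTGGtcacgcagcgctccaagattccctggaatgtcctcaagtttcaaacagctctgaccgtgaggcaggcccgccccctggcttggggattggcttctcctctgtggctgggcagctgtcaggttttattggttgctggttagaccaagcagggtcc

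None of the 10 contractile genes passed the test for a difference between genotypes. A gene was called at a Benjamini-Hochberg adjusted p of at most 0.05 in edgeR's quasi-likelihood test and a fold change of at least 1.5. By this rule 0.796% of all tested genes were called, 0.294% lower and 0.502% higher in DBA/2J. Without adjustment, at p of at most 0.05 and the same fold, 3 of the 10 were lower in DBA/2J and none was higher. They were Mylk, Lmod1 and Myocd, against 4.48% of all tested genes lower, 4.2% higher and 8.67% in either direction. DESeq2 with adjusted p-values called Mylk and Lmod1 lower, where it called 1.94% of all tested genes lower and 4.7% in either direction. In edgeR with no count minimum Mylk alone was called, against 0.369% of all genes called lower in that fit. In bulk tissue fewer smooth muscle cells and less RNA per cell cannot be told apart.

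Most of the 10 estimates were below 0, although no gene passed the test. The log2 fold change, given throughout as DBA/2J minus Gpnmb+, was below 0 for 9 of the 10, against 52.6% of all tested genes. Its median was -0.38 over the 10 genes and -0.02 over all tested genes. For 4 of the 10, Mylk, Lmod1, Myocd and Cnn1, every DBA/2J pool lay below both Gpnmb+ pools, against 17.2% of all tested genes, and for none did every DBA/2J pool lie above both, against 17.3%. These counts moved with single pools. Without Gpnmb+ pool 1, 6 of the 10 fold changes were below 0, near the 49.8% of all genes in that fit, and their median was -0.11. Without Gpnmb+ pool 2 all 10 were below 0, against 49.4% of all genes, with a median of -0.58. Leaving out DBA/2J pools 1, 2 and 3 gave 9, 8 and 9 below 0, against 53.7%, 52.4% and 52.4%. The number with every DBA/2J pool below the Gpnmb+ pools was 4 without Gpnmb+ pool 1, near the 34.1% of all genes, and 9 without Gpnmb+ pool 2, against 29.5%. Without DBA/2J pools 1, 2 and 3 it was 5, 6 and 4, against 23.2%, 24% and 23.3% of all genes.

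**Figure D1:**
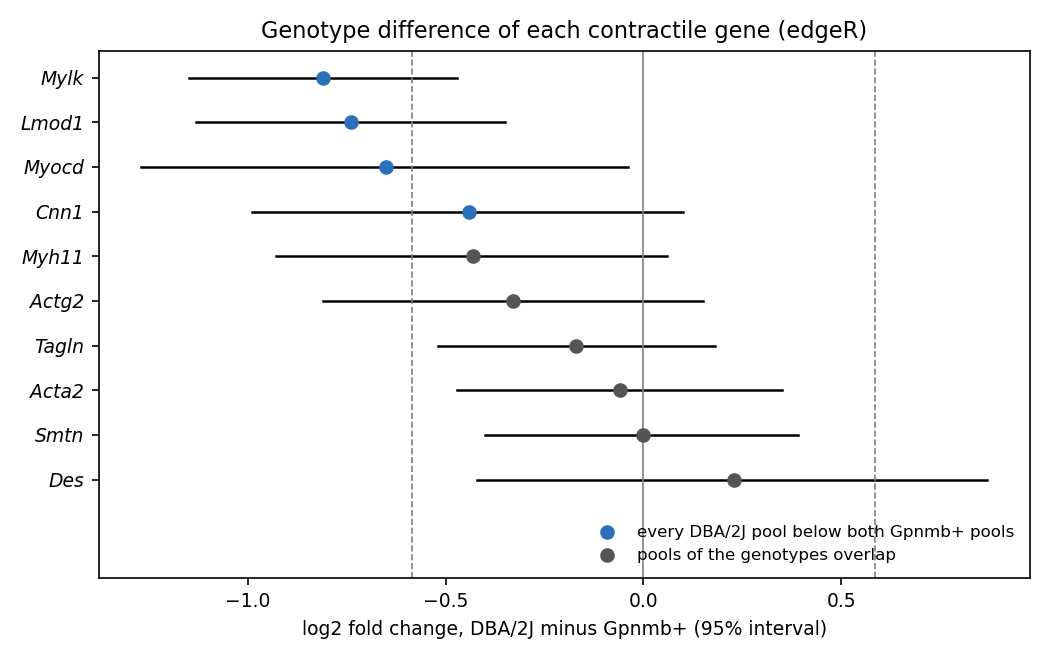
Log2 fold change (DBA/2J minus Gpnmb+, x axis) of each contractile gene with its 95% interval from edgeR, with blue points where every DBA/2J pool was below both Gpnmb+ pools and dashed lines at a fold change of 1.5. The estimates run from -0.81 for Mylk to 0.23 for Des, and the intervals of Mylk, Lmod1 and Myocd lie below 0.

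The libraries held 43900661 to 49837758 counts on genes, and levels are given as CPM, the usual per-library scaling of counts, with library sizes adjusted by edgeR's TMM method. Gpnmb itself was at 43.6 to 52.0 CPM where mutant and at 2555.5 and 2260.5 CPM where functional, in the direction of the labels. Given the differences in Ddx3y and Xist, sex and genotype cannot be told apart, and the DBA/2J pools also differed from each other in both genes. P-values measure the spread between pools of several mice. For 1 gene taken alone, an exact two-sided rank test of 3 against 2 pools can give no p smaller than 0.2.

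The motor of smooth muscle is the heavy chain Myh11 (chr16:14012399-14109236 in GRCm39), the most specific marker of the cell type. The DBA/2J pools 1 to 3 held Myh11 at 138, 190 and 147 CPM, and Gpnmb+ pools 1 and 2 at 254 and 175 CPM. Gpnmb+ pool 1 was the highest, and Gpnmb+ pool 2 fell inside the range of the DBA/2J pools. The means were 159 ± 27.6 CPM (SD, n = 3) and 215 ± 55.5 CPM (SD, n = 2). This was a log2 fold change of -0.43, with a standard error of 0.20, a 95% interval from -0.93 to 0.06 and an adjusted p of 0.365 in edgeR. Leaving out Gpnmb+ pool 1 moved it to -0.14, and leaving out Gpnmb+ pool 2 to -0.68.

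Actin forms the thin filaments on which this motor moves, and smooth muscle has a pair of its own actins. Acta2, vascular smooth muscle alpha actin (chr19:34217737-34232990), was at 418, 365 and 305 CPM in DBA/2J and at 422 and 333 CPM in Gpnmb+. The genotypes overlapped almost fully, with DBA/2J pool 1 as high as Gpnmb+ pool 1. For Acta2 the log2 fold change was -0.06, the standard error 0.17, the 95% interval from -0.47 to 0.35 and the adjusted p 0.902 in edgeR. Actg2, enteric smooth muscle gamma actin (chr6:83489887-83513551), was at 10.1, 11.3 and 10 CPM in DBA/2J and at 15.9 and 10.4 CPM in Gpnmb+. Gpnmb+ pool 1 stood above the other 4 pools, which lay close together. For Actg2 the log2 fold change was -0.33 (SE 0.20) with an adjusted p of 0.47 in edgeR, and it was 0.008 without Gpnmb+ pool 1.

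Several proteins sit on or cap the actin filament. Lmod1, a leiomodin that nucleates actin filaments in smooth muscle (chr1:135252509-135295907), was at 15, 21.5 and 18.1 CPM in DBA/2J and at 31.2 and 29.7 CPM in Gpnmb+. The Gpnmb+ pools lay close together, and every DBA/2J pool was below both. The DBA/2J level was 59.9% of the Gpnmb+ level in the fit, a log2 fold change of -0.74 with a standard error of 0.16 and a 95% interval from -1.13 to -0.35. The unadjusted p was 0.00352 and the adjusted p 0.109 in edgeR, so Lmod1 was not called. Its fold change stayed between -0.88 and -0.62 over 14 alternative settings, with adjusted p-values from 0.00318 to 0.289. No other annotated gene shares exon bases with Lmod1.

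Cnn1, the calponin that binds thin filaments in differentiated smooth muscle (chr9:22010512-22020926), was at 10.7, 17.4 and 16.3 CPM in DBA/2J and at 21.9 and 18.4 CPM in Gpnmb+. The genotypes did not overlap, although DBA/2J pool 2 came within about 1 CPM of Gpnmb+ pool 2. Cnn1 had a log2 fold change of -0.44 (SE 0.22) and an adjusted p of 0.399 in edgeR. Elof1 on the opposite strand overlaps exons of Cnn1 and had 1245 to 1888 counts, more than the 477 to 1109 of Cnn1, and, with no strand setting given for the counts, reads at the overlap may be misplaced.

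Tagln, or transgelin, an actin-bundling protein of early and mature smooth muscle (chr9:45840909-45847404), was at 222, 181 and 166 CPM in DBA/2J and at 227 and 199 CPM in Gpnmb+. DBA/2J pool 1 reached the Gpnmb+ range. Its log2 fold change was -0.17 (SE 0.14), with a 95% interval from -0.52 to 0.18 and an adjusted p of 0.618 in edgeR. Smtn, or smoothelin, found with actin filaments of contractile smooth muscle (chr11:3467520-3490612), was at 43.2, 36.2 and 46.2 CPM in DBA/2J and at 48 and 36 CPM in Gpnmb+. The Gpnmb+ pools were the highest and the lowest of the 5. The adjusted p of Smtn was 0.993 in edgeR, with a 95% interval of the log2 fold change from -0.40 to 0.39. Selenom overlaps exons of Smtn on the opposite strand with 2001 to 2840 counts, against 1555 to 2435 for Smtn.

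Des, or desmin, forms the intermediate filaments of muscle and is shared with skeletal and cardiac muscle (chr1:75320511-75345223). It was at 25, 28 and 42.2 CPM in DBA/2J and at 31.9 and 22.3 CPM in Gpnmb+. DBA/2J pool 3 was the highest, and Des was the only one of the 10 genes that was not highest in Gpnmb+ pool 1. Desmin had a log2 fold change of 0.23 (SE 0.27) and an adjusted p of 0.733 in edgeR, and its fold change was -0.033 without DBA/2J pool 3. The summed level of 10 skeletal muscle markers, among them Acta1 and Ckm, was also highest in that pool, at 224, 319 and 527 CPM in DBA/2J and 217 and 143 CPM in Gpnmb+. Their part in the Des values was not tested.

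Mylk, the kinase that switches on smooth muscle myosin (chr16:34565580-34822790), had the lowest fold change of the 10. It was at 176, 233 and 231 CPM in DBA/2J and at 374 and 374 CPM in Gpnmb+. The Gpnmb+ pools differed by less than 1 CPM, and the highest DBA/2J pool was well below them. The means were 213 ± 32.6 CPM (SD, n = 3) and 374 ± 0.357 CPM (SD, n = 2), and the DBA/2J level was 57.1% of the Gpnmb+ level in the fit. That is a log2 fold change of -0.81 with a standard error of 0.14 and a 95% interval from -1.15 to -0.47. The unadjusted p was 0.00115 and the adjusted p 0.0721 in edgeR, above the threshold. Over 14 alternative settings the fold change stayed between -0.88 and -0.69, with adjusted p-values from 4.3e-05 to 0.234. Mylk is also on the study's own list of genes with lower RNA in DBA/2J, which was drawn from these pools, so that RNA listing is not independent evidence. The study also lists the Mylk protein as less abundant in DBA/2J, measured in eyes that were processed singly. Those protein data were not used here. The gene makes the smooth muscle kinase, a longer kinase of nonmuscle cells and the kinase-free telokin, and counts per gene cannot separate them.

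Myocd, or myocardin, the coactivator of serum response factor in smooth muscle (chr11:65067387-65160828), had the lowest level of the 10. Its reads numbered 73, 106 and 115 with the mutant Gpnmb allele against 185 and 165 with the functional one, or 1.64, 2.47 and 2.58 CPM against 3.65 and 3.37 CPM. Every DBA/2J pool was below both Gpnmb+ pools. Its log2 fold change was -0.65 (SE 0.25), with a 95% interval from -1.27 to -0.04, an unadjusted p of 0.041 and an adjusted p of 0.29 in edgeR. Without DBA/2J pool 1, the lowest, it was -0.47.

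**Figure D2:**
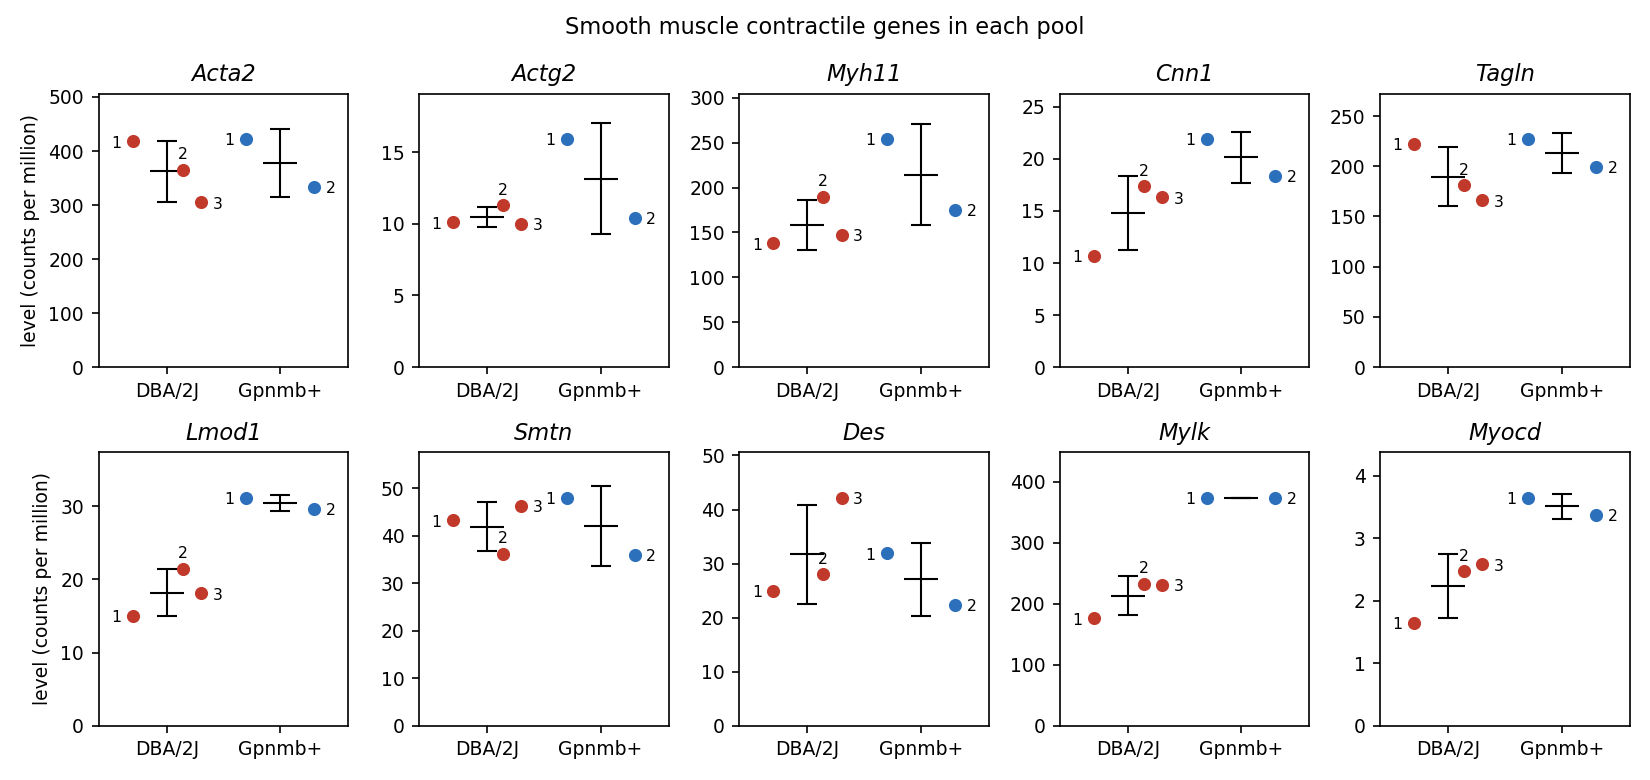
Level of each contractile gene (CPM, linear y axis from 0, one scale per panel) in the DBA/2J pools (red) and the Gpnmb+ pools (blue), with the pool number beside each point and the mean with 1 SD in black. Lmod1, Mylk, Myocd and Cnn1 show every DBA/2J pool below both Gpnmb+ pools, and the other 6 overlap.

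Levels can be compared between genes only per length, as RPKM, the CPM divided by the kilobases of exon. The length counts every annotated exon base of a gene over all its transcripts. Against the annotation's canonical transcript it is 11263 to 7824 bases for Mylk, 7599 to 6549 for Myh11, 5144 to 3134 for Des and 4088 to 4088 for Lmod1. The order of genes with close values depends on this length, and other lengths were not tried. On the RPKM scale Acta2 was the most abundant, with a mean of 114 RPKM over the 5 pools, followed by Tagln at 97.3 RPKM. Acta2 exceeded Tagln in all 5 pools, although the ranges of both across pools overlapped. Mylk at 24.7 RPKM and Myh11 at 23.8 RPKM came next and were not separated with these lengths, Mylk being the higher in 2 of 5 pools. Smtn followed at 9.41 RPKM. Cnn1, Des, Lmod1 and Actg2, at 6.19, 5.81, 5.66 and 5.2 RPKM, had overlapping ranges, and each exceeded the next in 3 of 5 pools. Myocd was far below the rest at 0.385 RPKM. The defining smooth muscle markers Myh11, Acta2, Cnn1, Tagln, Lmod1, Smtn and Actg2 were thus present in every pool of tissue from which iris and ciliary body had been removed.

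The 10 genes did not share one order of the pools. Gpnmb+ pool 1 was the highest for 9 of the 10, with both Gpnmb+ pools level for Mylk. DBA/2J pool 1 was the lowest for Myh11, Cnn1, Lmod1, Mylk and Myocd. Yet the same pool was above the mean of the 5 pools for Acta2 and Tagln, by 0.19 and 0.17 on the log2 scale, while its log2 level relative to that mean was -0.60 for Mylk and -0.67 for Myocd. The summed level of the 10 genes was 1060.0, 1086.7 and 985 CPM in DBA/2J and 1429.4 and 1201.9 CPM in Gpnmb+, a sum in which Acta2 weighs most.

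**Figure D3:**
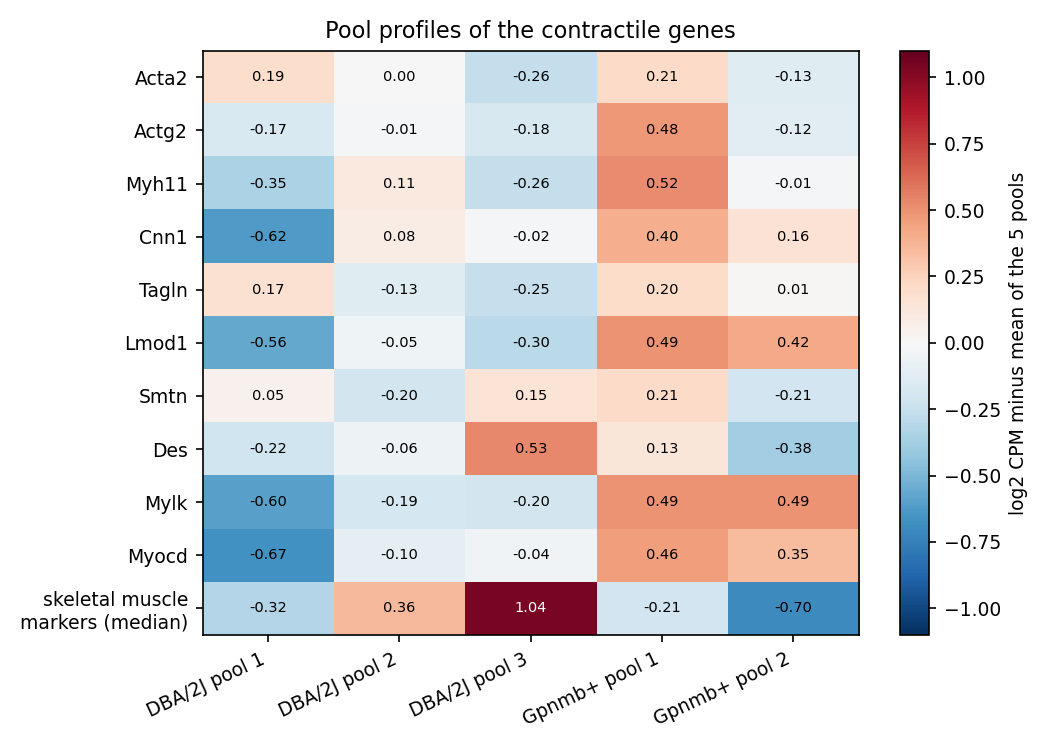
Log2 CPM of each contractile gene minus its mean over the 5 pools (colour and printed value), with pools in columns and the median of 10 skeletal muscle markers in the last line. Lmod1, Mylk, Myocd, Cnn1 and Tagln are above 0 in both Gpnmb+ pools, all 10 genes are above 0 in Gpnmb+ pool 1, and Des and the skeletal markers peak in DBA/2J pool 3.

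Genes whose pool pattern came closest to that of the 10 were sought among 11031 tested genes with a mean log2 CPM of at least 3. Likeness was the root mean square difference of centred log2 CPM over the 5 pools. The median profile of the 10 was -0.29, -0.05 and -0.19 in DBA/2J and 0.43 and 0.00 in Gpnmb+. The nearest genes were Slc2a9 at a difference of 0.034, Inka2 at 0.055, Klk11 at 0.057, Cd36 at 0.061, Ankrd29 at 0.065 and Slc5a6 at 0.069. Closest to Myh11 alone were Srpx at 0.050, Ddx60 at 0.073 and Apod at 0.084. With 5 pools and this many genes compared, near matches of this kind are a description only.

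Beyond the 10 genes, 59 further genes of smooth muscle were grouped by role. Of these 36 had a log2 fold change below 0, against 52.6% of all tested genes, with a median of -0.10. In edgeR 1 was called lower, against 0.294% of all tested genes, and none was called higher, against 0.502%. Every DBA/2J pool was below both Gpnmb+ pools for 22 of the 59 and above both for 10, against 17.2% and 17.3% of all tested genes. Without adjustment 4 passed as lower and 2 as higher, against 4.48% and 4.2% of all tested genes.

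Among 9 thin and thick filament partners, 4 were below 0 and 5 above, with a median of 0.08 and no call. Vcl, or vinculin, which ties actin to adhesions, was at 367, 279 and 288 CPM in DBA/2J and at 216 and 189 CPM in Gpnmb+. All DBA/2J pools were above both Gpnmb+ pools, with a log2 fold change of 0.62 (SE 0.15) and an adjusted p of 0.134 in edgeR. The cross-linker Actn1 had a log2 fold change of 0.42 and an adjusted p of 0.25 in edgeR. Myl9, the light chain that Mylk phosphorylates, was at 101, 121 and 108 CPM in DBA/2J and at 146 and 130 CPM in Gpnmb+. Its DBA/2J pools were all below the Gpnmb+ pools, with a log2 fold change of -0.33 (SE 0.11) and an adjusted p of 0.227 in edgeR.

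The 10 dense body and linker genes had a median of -0.10 and no call. Pdlim3, an actinin-associated LIM protein, was at 25.6, 24.7 and 28 CPM in DBA/2J and at 16.6 and 18.8 CPM in Gpnmb+, with a log2 fold change of 0.56 (SE 0.11) and an adjusted p of 0.0936 in edgeR. Csrp1, a LIM protein of smooth muscle, had a log2 fold change of -0.25 and an adjusted p of 0.205 in edgeR. The members of this group thus lay on both sides of 0. The list of 9 phosphatase subunits, their regulators and small heat shock proteins had 7 below 0, a median of -0.20 and no call. Ppp1r12a, the targeting subunit of the phosphatase that opposes Mylk, was at 125, 131 and 131 CPM in DBA/2J and at 152 and 169 CPM in Gpnmb+, with an adjusted p of 0.158 in edgeR. For Ppp1r12b and the inhibitor Ppp1r14a the log2 fold changes were -0.38 and -0.54, with adjusted p-values of 0.205 and 0.339 in edgeR.

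The transcriptional regulators included Srf itself, at 30.2, 22.2 and 26.9 CPM in DBA/2J and at 25.6 and 23.8 CPM in Gpnmb+. Its pools overlapped, with an adjusted p of 0.802 in edgeR. The 7 regulators had a median of -0.04 and no call. Klf4, a factor that represses smooth muscle genes in cultured cells, was at 150, 151 and 169 CPM in DBA/2J and at 221 and 248 CPM in Gpnmb+. Every DBA/2J pool was below both, with a log2 fold change of -0.58 (SE 0.10) and an adjusted p of 0.0689 in edgeR. Foxo4 had a log2 fold change of -0.37 and an adjusted p of 0.229, and Hexim1 had 0.25 and 0.423, both in edgeR.

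Receptors and channels had the lowest median of the role groups, -0.48, with 11 of 13 below 0 and no call. Every DBA/2J pool was below both Gpnmb+ pools for 7 of them and above both for 1, against 17.2% and 17.3% of all tested genes. Itpr1, the channel that releases stored calcium, was at 119, 129 and 153 CPM in DBA/2J and at 183 and 197 CPM in Gpnmb+, with a log2 fold change of -0.51 (SE 0.12) and an adjusted p of 0.134 in edgeR. Irag1, which couples cyclic GMP kinase to that channel, was at 11.3, 16.7 and 16.1 CPM in DBA/2J and at 24.1 and 24.7 CPM in Gpnmb+, with a log2 fold change of -0.73 (SE 0.18) and an adjusted p of 0.144 in edgeR. Adra1a, an adrenergic receptor of the iris dilator, went the other way at 13.8, 15.1 and 17.4 CPM against 9.56 and 11.6 CPM, with an adjusted p of 0.18 in edgeR. Kcnmb1 and Chrm3, named after their values were seen, had log2 fold changes of -0.86 and -0.72. The first, a subunit of the large calcium-activated potassium channel, kept its genotypes apart, and the second, the muscarinic receptor of sphincter and ciliary muscle, had overlapping pools.

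Npnt, or nephronectin, a matrix ligand of the integrin Itga8, was the gene of the 59 that was called. It was at 35, 43 and 42.9 CPM in DBA/2J and at 72.3 and 75 CPM in Gpnmb+. The Gpnmb+ pools were close together and every DBA/2J pool was far below them, at 54.7% in the fit. Nephronectin had a log2 fold change of -0.87 (SE 0.11) and an adjusted p of 0.0407 in edgeR. The call was lost with any single pool left out, with adjusted p-values from 0.0714 to 0.166 and fold changes from -0.92 to -0.78. Itga8, the subunit of its receptor and named after its values were seen, was at 11.1, 21.8 and 16.7 CPM in DBA/2J and at 35.4 and 32.3 CPM in Gpnmb+, a log2 fold change of -1.03 (SE 0.26) with an adjusted p of 0.147 in edgeR. Both Npnt and Itga8 are on the study's own list of genes with lower RNA in DBA/2J, drawn from these same pools. The study lists both proteins as less abundant too, without reaching its p threshold. This last group of 11 also holds Lmod3, a leiomodin of striated muscle, at 0.697, 1.03 and 1.82 CPM against 0.512 and 0.511 CPM. Its median was 0.06.

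**Figure D4:**
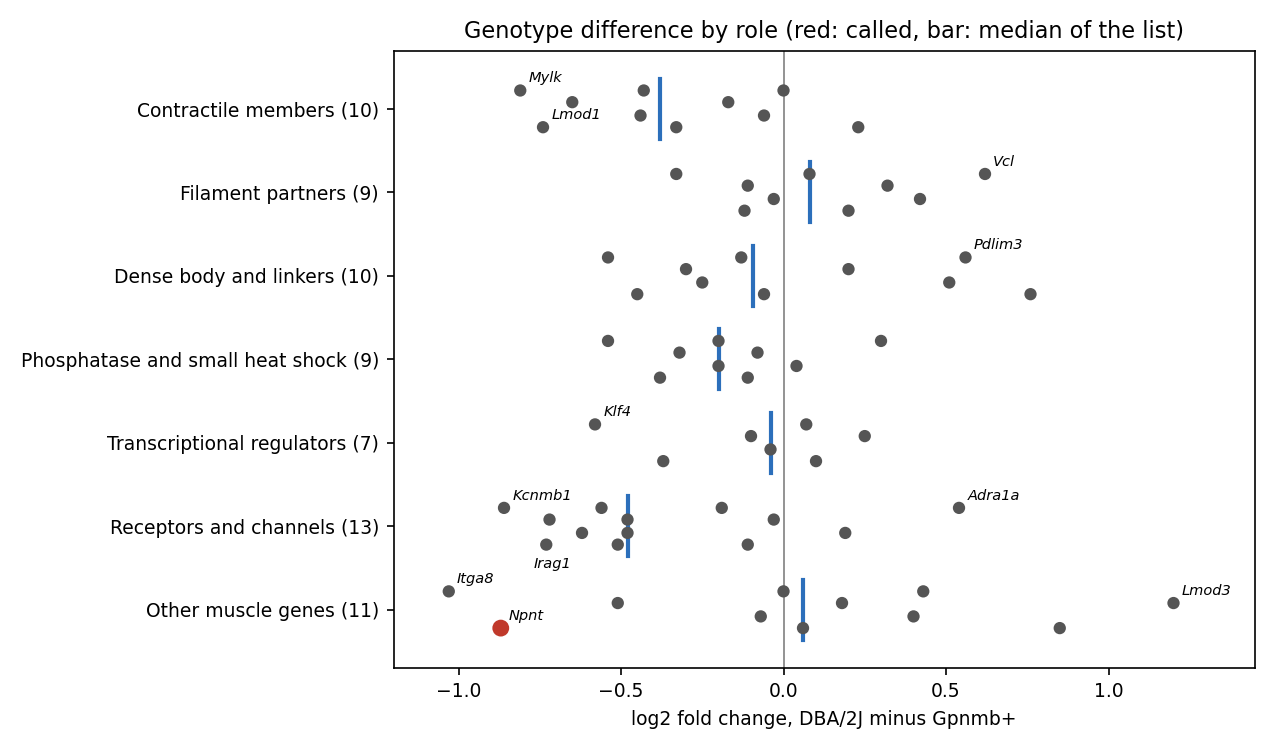
Log2 fold change (DBA/2J minus Gpnmb+, x axis) of the 10 contractile genes and of 59 further smooth muscle genes by role, with 1 point per gene, a blue bar at the median of each list and red for a called gene. Npnt at -0.87 is the called gene, and the medians run from -0.48 for receptors and channels to 0.08 for filament partners.

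Marker lists of other cells that the tissue could hold were read beside these values, and their part in the results was not tested. The 9 pericyte and mural markers had no call and a median of -0.01, with sums of 718 to 763 CPM in DBA/2J and of 708 and 821 CPM in Gpnmb+. No call was made among 6 myofibroblast, 6 endothelial, 5 nonmuscle contractile, 6 cardiac-type and 4 corneal epithelial markers, whose medians were 0.18, 0.23, 0.19, -0.67 and -0.42. The cardiac-type sum was 4.96 to 13.1 CPM in all pools. The 10 skeletal markers were all above 0 with a median of 0.96 and no call. Markers of nonpigmented ciliary epithelium were above 0 for 6 of 6, with Six6 and Col9a1 among those called higher and sums of 447 to 489 CPM in DBA/2J against 209 and 141 CPM in Gpnmb+. Of 4 Schwann cell markers all were below 0, with a median of -0.95 and sums of 135 to 179 CPM against 209 and 253 CPM. Slc45a2 was called lower among 6 pigment cell markers, and Edn3 lower and Cyp1b1 higher among 6 trabecular meshwork markers.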

How the data were processed

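Iridocorneal RNA of 5 pools was sequenced (3 of DBA/2J and 2 of Gpnmb+). The values deposited by the authors are unnormalized counts per gene, made from reads trimmed by fastp and placed uniquely on GRCm39 by STAR. They used DESeq2 for their own comparison. Tool versions and the strand setting are not given in the sources used here. GENCODE M39 (GRCm39) named 56323 of 56941 identifiers.

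Genes reaching 10 counts in 1 or more pools were fitted in R 4.3.3 with edgeR 4.0.16 (TMM, quasi-likelihood test, no covariate) and Benjamini-Hochberg adjustment over all 19713. Calls needed an adjusted p of at most 0.05 and a fold of at least 1.5. A prior count of 2 was added for log2 CPM, and RPKM divided CPM by the length of all annotated exon bases of the gene. The fit was tested on simulated data. Alternatives were DESeq2's size factors, total counts, DESeq2 1.42.0, limma-voom 3.58.1, other count filters, other call rules, a replicate block and each pool left out. No 100-base stretch of the canonical transcript of any of the 10 genes was found in the same orientation in a transcript of another gene. Their other transcripts and the reverse orientation were not searched. Genes on the opposite strand share exon bases with Acta2, Cnn1, Tagln, Smtn, Des, Mylk and Myocd.

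The 10 genes and all lists were chosen with earlier results of these data known. From each role list, every called gene was named, or otherwise up to 3 with the smallest unadjusted p. From the marker lists only called genes were named, and Acta1 and Ckm as examples. Chil1 was matched under its newer symbol Chi3l1. Proteomics was not analysed here. Values of a few listed genes are left out of the text.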

Additional observations from a re-analysis of the deposited data

How the results depend on the processing

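The number of the 10 contractile genes called, 0 in edgeR, was 3 with unadjusted p-values, 2 with DESeq2 and 1 with no count filter, and stayed at 0 with each pool left out and in the remaining settings. Of the 59 further smooth muscle genes, 1 was called in edgeR, 6 with unadjusted p-values, 5 with DESeq2 and from 0 to 0 with each pool left out. Over all tested genes the count of 157 became 1710 with unadjusted p-values, 927 with DESeq2, 360 with no count filter and from 1 to 217 with a pool left out, being 6, 1 and 17 without DBA/2J pools 1, 2 and 3 and 217 and 2 without Gpnmb+ pools 1 and 2. The cause was not tested, except that a smaller group has fewer pools.

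Mylk, Lmod1, Myocd, Cnn1, Myh11 and Tagln kept a fold change below 0 under all 14 alternatives. Those that change only the call rule reuse the main fit, so their fold changes could not differ. The fold changes of Acta2, Actg2, Smtn and Des changed sign under some alternatives. With a pool left out Acta2 ran from -0.22 to 0.13, Actg2 from -0.60 to 0.008, Smtn from -0.20 to 0.22 and Des from -0.033 to 0.51 on the log2 scale. Smtn was also at 0.002 with DESeq2's size factors, 0.002 with DESeq2, 0.0035 with limma-voom and 0.016 with no count filter. Npnt lost its call with any pool left out.

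With the pool number as a replicate block, 0 of the 10 genes, 1 of the 59 and 220 of all genes were called, and Acta2 and Des changed sign to 0.06 and -0.014. Deviations of equally numbered pools correlated at 0.279 and 0.254, but only 2 pairs exist and no label ties a number to a shared batch, so the numbers were not taken as pairing. Myocd, with 73 to 185 counts, is the gene that depth limits most.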

Other observations

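Ratios of levels per length, chosen after their values were seen, describe the makeup of the contractile RNA within each pool. The size of each percentage depends on the exon lengths used, while its order across pools does not. Mylk stood at 12%, 18.3% and 21.7% of Acta2 in DBA/2J pools 1 to 3 and at 25.4% and 32.1% in Gpnmb+ pools 1 and 2, so every DBA/2J pool was below both Gpnmb+ pools. Lmod1 stood at 2.83%, 4.65% and 4.68% of Acta2 in DBA/2J and at 5.83% and 7.03% in Gpnmb+, again with no overlap. Myh11 stood at 14.1%, 22.1% and 20.5% of Acta2 in DBA/2J and at 25.5% and 22.3% in Gpnmb+. These pools did not overlap either, although DBA/2J pool 2 came within 1 percentage point of Gpnmb+ pool 2. Tagln stood at 83.6%, 78.1% and 85.6% of Acta2 in DBA/2J and at 84.7% and 94.4% in Gpnmb+, and Actg2 at 3.51%, 4.48% and 4.77% against 5.48% and 4.55%, both with overlapping pools. Relative to Myh9, a heavy chain of nonmuscle myosin, Myh11 was at 47.8%, 83.8% and 65% in DBA/2J and at 111% and 85.1% in Gpnmb+, with no overlap but with pools 2 close. Acta2 was at 22.6%, 24.5% and 19.6% of the cytoplasmic actin Actb in DBA/2J and at 28.4% and 23% in Gpnmb+, with overlapping pools. DBA/2J pool 1 had the lowest ratio to Acta2 for Mylk, Lmod1, Myh11 and Actg2. No test was run on these ratios, and how often ratios of other genes keep the genotypes apart was not counted. The CPM of Mylk and Lmod1 already kept the genotypes apart, so their ratios to Acta2 are not separate evidence.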
